A study of Mus musculus with 3 samples.

Results

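Aminoacyl-tRNA synthetases are the enzymes that join each amino acid to its tRNA. The 36 genes described here are 20 that code for cytosolic synthetases and 16 that code for mitochondrial ones. They were listed by name and not by a limit on their values, though earlier results of these data were known. All 36 have a row in the CBTi-seq table and in both 3' tables. All 36 had counts in CBTi-seq, where 20716 genes had any. With the 3' method, 35 of them had counts, and Vars2, the mitochondrial valyl enzyme, was listed at 0 in every column.

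The cells were L929, an established line of mouse fibroblasts, with a knockdown of Rrm2 in a knock group and none in a control group. Transcripts were counted with CBTi-seq in 1 sample and with a 3' end method in the other two. CBTi-seq gave 10 control and 10 knock columns in a single sample, and the 3' method gave 8 columns for each of its samples. By the protocol text, which is the same for all 3 samples, a column is a cell picked with a capillary. The means of knockdown, and any use of clones, are not stated in the labels.

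Column totals ran from 41570 to 846819 counts in CBTi-seq control, 153051 to 735871 in CBTi-seq knock, 399393 to 2496457 in 3' control and 814960 to 1973137 in 3' knock. No 2 columns of a method were identical. Rrm2, the knocked-down subunit of ribonucleotide reductase, was at 481 CPM (counts per 1000000 counts of the group) in CBTi-seq control and 350.1 in CBTi-seq knock. For the 3' method it stood at 39.1 CPM under the control label and at 148 CPM under the knock label. Rrm2 thus goes against the 3' labels, and every direction given below for the 3' method is between the library labelled knock and the library labelled control. Of 10 fibroblast markers, 7 had a row in CBTi-seq, and they summed to 1879 CPM in control and 1855 in knock, led by Vim and S100a4. Within that sum Col1a2, Pdgfrb and Fn1 were lower in knock (log2 ratios of -1.26, -0.83 and -0.62), and Dcn, Lum and Thy1 had no row. Leukocyte markers, mostly Cd68, summed to 48.7 and 23.4 CPM in CBTi-seq, epithelial markers to 2.85 and 0.855 CPM, and endothelial markers had no row. In the 3' tables epithelial markers summed to 195 CPM under the control label and 123 under the knock label, with Cdh1 lower (188 and 110 CPM) but Krt8 and Krt19 at 0 under the control label and at 6.11 and 4.47 CPM under the knock label. Ptprc, Cd3e and Itgam, defining markers of leukocytes, were at 0 there. The part of these markers in the synthetase values was not tested. Each comparison has 1 sample a group, so no difference was tested against replicates, and differences are given with 95% intervals that cover counting error only.

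In mammalian cells, a synthetase for nearly every amino acid works in the cytosol and a separate nuclear gene codes for the enzyme of the mitochondrial matrix. Gars and Kars are exceptions that make both forms from a single gene. Cells that lack amino acids or have stress in the endoplasmic reticulum make the transcription factor ATF4, which binds a short element in the promoters of many amino acid transporters, biosynthetic enzymes and cytosolic synthetases. Several cytosolic synthetases sit together in the multisynthetase complex.

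RefSeq promoters, from 250 bases before to 50 after the transcription start (build GRCm38.p6), were matched for 27 of the 36 genes. They were searched on both strands for the core of the ATF4 response element, spelled TGATGNAA. It stood in 5 of 13 cytosolic genes (38.5%) and in 0 of 14 mitochondrial genes, against 4.51% of the 27025 genes with a promoter of this length. The 5 are Aars, Gars, Iars, Tars and Yars, and all are among the 12 cytosolic genes often named as ATF4 targets, 8 of which had a promoter. The stricter spelling TGATGCAA was in 4 cytosolic genes and in 1.03% of all genes. The promoters that hold a match are shown to place it, with the match in capitals. A match on the other strand is printed as its reverse complement. In position, +1 is the first transcribed base. Aars has matches that begin at -112 and +10, Gars at -30, Iars at +8, Tars at -15 and Yars at +4.
Aars, chr8:111033592-111033891, plus strand: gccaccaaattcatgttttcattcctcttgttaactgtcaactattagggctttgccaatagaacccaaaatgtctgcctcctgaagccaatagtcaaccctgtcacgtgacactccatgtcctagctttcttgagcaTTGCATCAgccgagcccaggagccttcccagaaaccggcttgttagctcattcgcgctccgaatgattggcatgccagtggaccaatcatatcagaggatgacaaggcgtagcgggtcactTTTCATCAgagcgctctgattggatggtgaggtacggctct
Gars, chr6:55037751-55038050, plus strand: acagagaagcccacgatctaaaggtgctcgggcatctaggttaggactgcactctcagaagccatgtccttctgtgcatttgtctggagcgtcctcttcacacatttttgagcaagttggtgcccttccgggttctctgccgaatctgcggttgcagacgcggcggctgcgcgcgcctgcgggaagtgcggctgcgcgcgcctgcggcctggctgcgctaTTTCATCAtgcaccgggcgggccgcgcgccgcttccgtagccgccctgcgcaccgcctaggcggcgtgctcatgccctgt
Iars, chr13:49681880-49682179, plus strand: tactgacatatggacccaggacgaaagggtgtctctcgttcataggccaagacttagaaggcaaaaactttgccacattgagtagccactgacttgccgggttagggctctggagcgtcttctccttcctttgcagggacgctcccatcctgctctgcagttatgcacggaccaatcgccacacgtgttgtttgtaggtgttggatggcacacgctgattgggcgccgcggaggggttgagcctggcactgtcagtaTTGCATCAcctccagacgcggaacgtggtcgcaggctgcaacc
Tars, chr15:11399609-11399908, minus strand: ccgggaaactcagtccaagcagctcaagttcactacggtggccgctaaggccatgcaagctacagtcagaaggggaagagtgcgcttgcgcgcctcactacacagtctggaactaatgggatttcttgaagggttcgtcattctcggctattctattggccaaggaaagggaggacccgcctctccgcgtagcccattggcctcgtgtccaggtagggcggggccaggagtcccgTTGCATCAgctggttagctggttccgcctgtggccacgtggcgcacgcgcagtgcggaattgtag
Yars, chr4:129189653-129189952, plus strand: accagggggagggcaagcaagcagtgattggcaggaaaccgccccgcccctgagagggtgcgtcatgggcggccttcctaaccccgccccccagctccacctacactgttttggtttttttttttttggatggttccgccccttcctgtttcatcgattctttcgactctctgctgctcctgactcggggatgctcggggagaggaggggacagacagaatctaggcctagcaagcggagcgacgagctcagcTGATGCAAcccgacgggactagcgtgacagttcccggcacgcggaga

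The promoter of Sars, the cytosolic gene with the highest CPM in control by both methods, is shown for contrast, since these letters are not in its window.
Sars, chr3:108445210-108445509, minus strand: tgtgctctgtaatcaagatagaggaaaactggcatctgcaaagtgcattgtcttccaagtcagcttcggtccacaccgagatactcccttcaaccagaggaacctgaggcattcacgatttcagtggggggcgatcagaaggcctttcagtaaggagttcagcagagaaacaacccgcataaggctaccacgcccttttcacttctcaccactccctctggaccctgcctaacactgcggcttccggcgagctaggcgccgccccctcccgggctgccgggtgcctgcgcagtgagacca
A match is a description of letters and does not show that the factor binds.

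In CBTi-seq the cytosolic synthetases were slightly higher in the knock columns as a group. They summed to 4284 CPM in control and 4723 CPM in knock (log2 ratio 0.14, interval 0.11 to 0.17). By column the sum ran from 2935 over a median of 4254 to 4762 CPM in control, and from 3451 over 4645 to 5315 CPM in knock. The ranges overlapped, and 9 of 10 knock columns lay above the control median. Of the 20 genes, all at a mean of 20 CPM or more, 15 had a log2 ratio above 0, where 44.7% of all genes at that level did. Their median log2 ratio was 0.09, beside -0.05 over the 8391 genes at that level. None of the 20 reached a 2-fold difference at a mean of 50 CPM, where 0.343% of genes were 2-fold higher and 0.668% 2-fold lower in knock. No cytosolic or mitochondrial synthetase had control and knock columns that did not overlap, a pattern seen for 0.0596% of genes in the higher direction and 0.0715% in the lower.

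**Figure D1:**
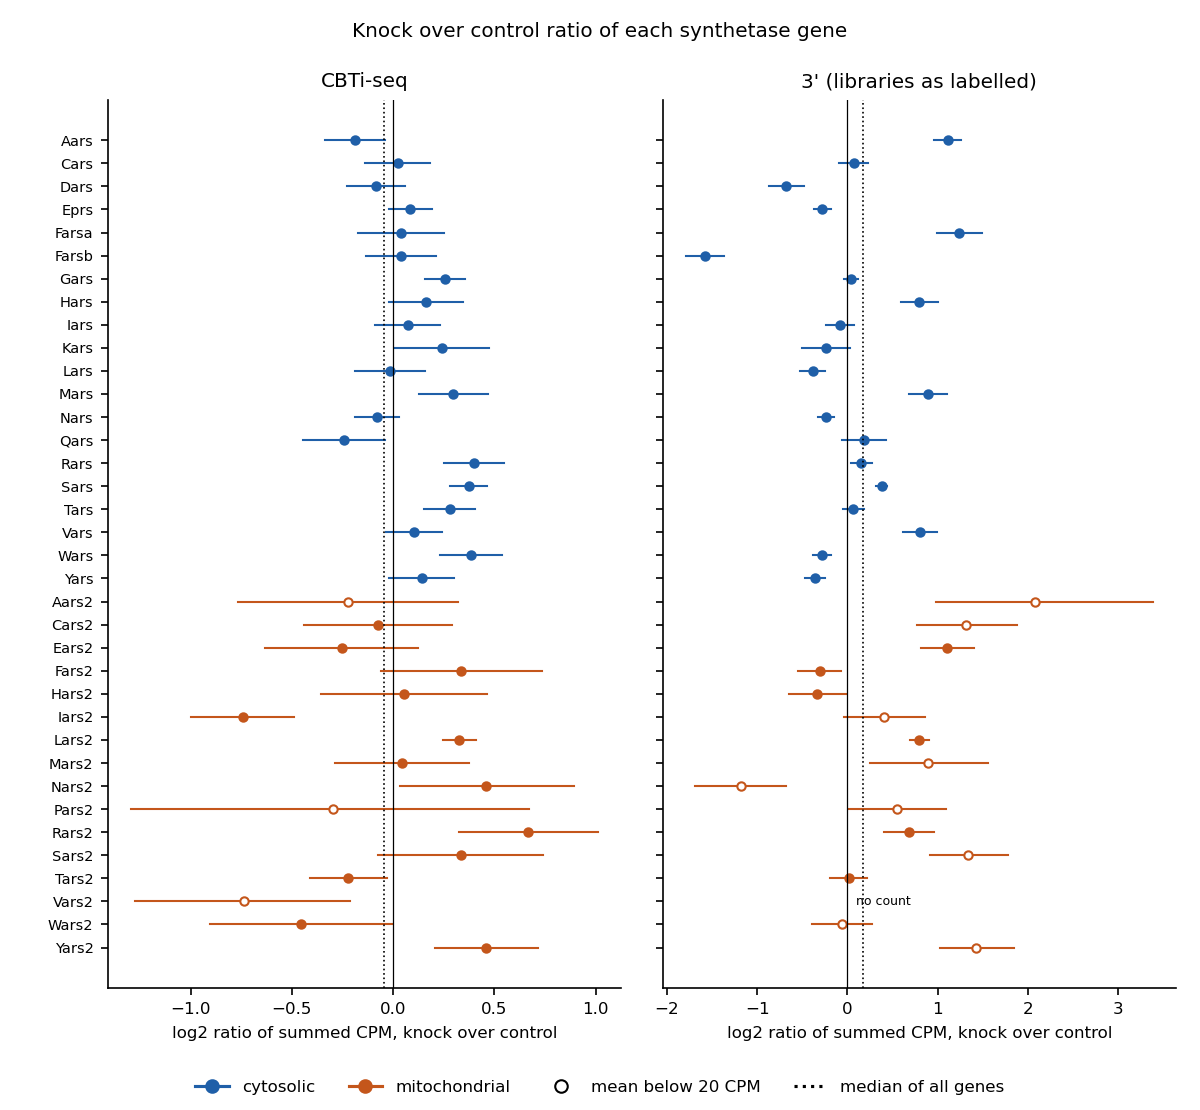
Log2 ratio of summed CPM, knock over control, for each of the 36 genes in CBTi-seq (left) and in the 3' libraries as labelled (right), with 95% intervals for counting error; open points have a mean below 20 CPM, and the dotted line is the median of all genes at 20 CPM or more. The cytosolic genes lie between -0.24 and 0.40 in CBTi-seq and between -1.58 and 1.24 in the 3' libraries.

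Sars, Rars and Wars had the largest cytosolic ratios in CBTi-seq. Sars, which charges serine tRNA, ran from 341 over a median of 454 to 656 CPM in control columns and from 504 over 611 to 778 CPM in knock columns. All 10 knock columns were above the control median, though the ranges overlapped, and the log2 ratio was 0.37 (0.28 to 0.47). Rars, the arginyl enzyme of the multisynthetase complex, ran from 88.4 over 174 to 289 CPM in control and from 111 over 228 to 279.9 CPM in knock, with a log2 ratio of 0.40 (0.25 to 0.55). Its highest single column was a control, and 9 of 10 knock columns passed the control median. Wars, the tryptophanyl enzyme, ran from 122 over 182 to 265 CPM in control and from 159.9 over 211 to 255 CPM in knock, with a log2 ratio of 0.39 (0.23 to 0.54). For Rars and Wars the mean of column CPM, which weights columns equally, gave smaller log2 ratios of 0.26 and 0.24.

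Gars, the glycyl enzyme of cytosol and mitochondria, was at 257, 411 and 547 CPM in its lowest, median and highest control columns. In knock it was at 419, 501 and 614 CPM, and each knock column was above the control median. The log2 ratio was 0.26 (0.16 to 0.36). Per kilobase of annotated exon Gars had the highest level of the 20 in control, 132 CPM per kb, ahead of Sars at 91.9 and Nars, the asparaginyl enzyme, at 89.2 CPM per kb. Kars, the lysyl enzyme that also serves both compartments, had the lowest, 17.2 CPM per kb, and a log2 ratio of 0.24 (0.01 to 0.48). Gars and Kars, the pair that serves both compartments, thus stood at opposite ends of the order per kilobase. By plain CPM Sars was highest in control, at 472, Gars next, at 412, and Kars lowest, at 76.9. The length used is that of all annotated exons joined, and whether counts rise with it was not tested.

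The intervals of 7 cytosolic genes lay above 0 in CBTi-seq, those of 2 below it, and those of 11 included it. Of all genes at 20 CPM, 21% had an interval above 0 and 28% below. Besides Sars, Rars, Wars, Gars and Kars, the 7 hold Tars (log2 ratio 0.28, interval 0.15 to 0.41) and Mars (0.30, 0.13 to 0.47), the threonyl and methionyl enzymes. Aars, the alanyl enzyme, and Qars, the glutaminyl enzyme, were the 2 below, with log2 ratios of -0.19 (-0.34 to -0.04) and -0.24 (-0.44 to -0.04). Single columns moved several of these by over 1.5 times. Kars was 0.14 without knock column 10 and 0.46 without control column 3, and Mars was 0.46 without control column 9. Aars was -0.30 without knock column 10, and Qars was -0.10 without control column 9. The intervals leave out the spread between columns. Across control columns, the variance of a synthetase's count was a median of 4.23 times what counting alone would give, beside 3.84 times over all genes at 20 CPM or more, and in knock 2.17 beside 2.35 times.

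The 8 synthetases of the multisynthetase complex (Eprs, Iars, Lars, Mars, Qars, Rars, Kars and Dars) summed to 1439 CPM in control and 1540 CPM in knock of CBTi-seq, a log2 ratio of 0.10 (0.04 to 0.15). The 12 outside it summed to 2845 and 3183 CPM, a log2 ratio of 0.16 (0.12 to 0.20). Complex members above 0 numbered 5 of 8 and the others 10 of 12, beside 44.7% of all genes at 20 CPM. The 3 scaffold proteins of the complex were all higher in knock, with Eef1e1 going from 197 to 280.3 CPM (log2 ratio 0.51, 0.37 to 0.65). Aimp2, the scaffold that links the complex, had a log2 ratio of 0.14 and Aimp1 one of 0.07, with intervals that included 0. By catalytic fold, 7 of 9 class I genes and 7 of 10 class II genes had a log2 ratio above 0, with medians of 0.10 each.

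The 12 cytosolic genes linked to ATF4 and the 8 others differed little in CBTi-seq. Of the 12, 9 had a log2 ratio above 0 with a median of 0.11, and their sum had a log2 ratio of 0.16 (0.12 to 0.20). Of the 8, 6 were above 0 with a median of 0.07, and their sum had a log2 ratio of 0.09 (0.03 to 0.15). Of all genes at 20 CPM, 44.7% were above 0. The 5 genes with a promoter match were Aars at -0.19, Gars at 0.26, Iars at 0.07, Tars at 0.28 and Yars at 0.14, while Sars without one was at 0.37. The 5 with a match thus lay on both sides of 0.

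Genes of amino acid supply and the integrated stress response were compared as a list of 32, of which 28 had 20 CPM in CBTi-seq. In knock 18 of the 28 had a log2 ratio above 0, beside 44.7% of all genes, with a median of 0.14. The 29 with a row summed to 6329 CPM in control and 7088 CPM in knock, a log2 ratio of 0.16 (0.14 to 0.19). At 20 CPM the largest ratios were those of Chac1, which degrades glutathione, from 90.1 to 176 CPM (0.97, 0.77 to 1.16), and Ddit3, the stress transcription factor CHOP, from 149 to 276 CPM (0.89, 0.74 to 1.04). Vldlr, a lipoprotein receptor, and Slc6a9, a glycine transporter, were lower in knock, with log2 ratios of -0.95 (-1.19 to -0.72) and -0.78 (-1.13 to -0.44). The list thus moved in both directions.

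Across CBTi-seq columns, the cytosolic synthetase sum and the stress response sum were high and low together. Pearson's r was 0.81 over the 10 control columns (Spearman's rho 0.81) and 0.75 over the 10 knock columns (rho 0.68). Without the 2 columns farthest from the median of the stress response sum, r was 0.74 and 0.58 over 8 columns each. For the 3' method r was 0.24 under the control label and 0.47 under the knock label over 8 columns each, and 0.60 and -0.07 over 6. These values describe columns of a library that share total counts as their scale, and carry no test. The cytosolic sum and the column total had an r of 0.57 in CBTi-seq control and 0.32 in knock, and the part of depth in the relation was not tested.

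**Figure D2:**
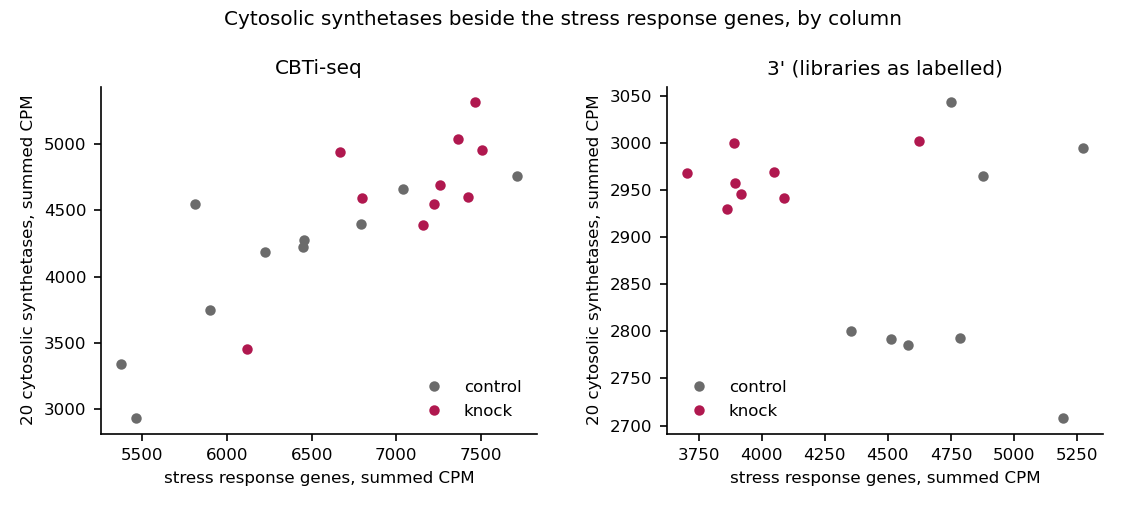
Summed CPM of the 20 cytosolic synthetases (vertical) against that of the stress response genes (horizontal), each point a column, for CBTi-seq (left) and the 3' libraries as labelled (right); axes do not start at 0. In CBTi-seq both groups lie along a rising band (r of 0.81 and 0.75), and in the 3' panel 7 of 8 columns labelled knock lie left of all columns labelled control.

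Of the kinases that start the stress response by phosphorylating eIF2, 4 had a row in CBTi-seq. Eif2ak3 (PERK, of the endoplasmic reticulum) went from 15.8 to 24.5 CPM, a log2 ratio of 0.63 (0.14 to 1.13). Eif2ak4 (GCN2, which senses uncharged tRNA), Eif2ak2 and Eif2ak1 had log2 ratios of -0.21, -0.23 and 0.02, with intervals that included 0. Among carriers and editors of charged tRNA, Tufm, the mitochondrial elongation factor, had a log2 ratio of 0.35 (0.18 to 0.53), and Eef1a1, the cytosolic one, 0.08 (0.02 to 0.14). Prorsd1 and Dtd1, which edit mischarged tRNA, had ratios of -0.18 and -0.16 with intervals that included 0.

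The mitochondrial synthetases had lower levels and no common direction in CBTi-seq. In control their median level was 29.6 CPM, against 172 CPM for the cytosolic genes, and per kilobase the 16 ran from 1.92 CPM per kb for Pars2, the prolyl enzyme, to 51.2 CPM per kb for Lars2, the leucyl enzyme. Of the 13 at 20 CPM or more, 8 had a log2 ratio above 0, beside 44.7% of all genes, with a median of 0.05. Aars2, Vars2 and Pars2 were below that level. Intervals lay above 0 for 4 of the 13 (Lars2, Nars2, Rars2, Yars2) and below it for 3 (Iars2, Tars2, Wars2), beside the 21% and 28% of all genes. Their summed level was 1178 CPM in control and 1304 CPM in knock, a log2 ratio of 0.15 (0.09 to 0.21). Without Lars2 the 15 others summed to 611 and 591 CPM, a log2 ratio of -0.05 (-0.13 to 0.04), so the direction of the sum rested on Lars2.

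Lars2 held 48.2% of the mitochondrial synthetase counts in CBTi-seq control and 54.7% in knock. It ran from 214 over a median of 665 to 2622 CPM in control columns and from 418 over 773 to 1245 CPM in knock columns, and the ranges overlapped. The summed counts gave a log2 ratio of 0.33 (0.24 to 0.41), without control column 5 they gave 0.17, and the mean of column CPM gave -0.05. Its highest column, control 1, was the shallowest of the 20, with 109 Lars2 counts of 41570. Across columns the variance of its count was 86.0 times that of counting in control and 29.4 times in knock, the highest of the synthetases in both.

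Lars2 was high in the same CBTi-seq columns as the mitochondrial large ribosomal RNA, mt-Rnr2, which ran from 714 to 5725 CPM in control and from 867 to 3345 CPM in knock. Pearson's r was 0.96 over the 10 control columns, 0.73 over 9 without control 1, and 0.82 over the 10 knock columns. With Gm42418, a gene model that had 660 to 9334 CPM in control columns, r was 0.97 in control, 0.84 without control 1 and 0.87 in knock. With the column total, r was -0.71 in control and -0.65 in knock, so Lars2 was higher in shallow columns. The CPM of mt-Rnr2 was lowest in the deepest column of each group, 714 at 846819 counts in control and 867 at 735871 in knock. It was highest in the shallowest, 5725 at 41570 counts in control and 3345 at 153051 in knock. The highest count of any gene in a CBTi-seq column ran only from 399 to 638, while totals ran from 41570 to 846819. Over its 10 columns mt-Rnr2 had 5331 counts in control and 5646 in knock. The CPM of a gene near the top count falls as the column total rises. A relation of Lars2 with mt-Rnr2 thus cannot be told apart from one with depth. Of the 50-base stretches of Lars2, 0.196% are shared with other genes in the GENCODE vM21 transcripts. A shorter or inexact likeness to mt-Rnr2 was not searched for. In the 3' libraries r between Lars2 and mt-Rnr2 was 0.24 and 0.42 over 8 columns. The part of depth and of ribosomal RNA in the Lars2 values was not tested.

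**Figure D3:**
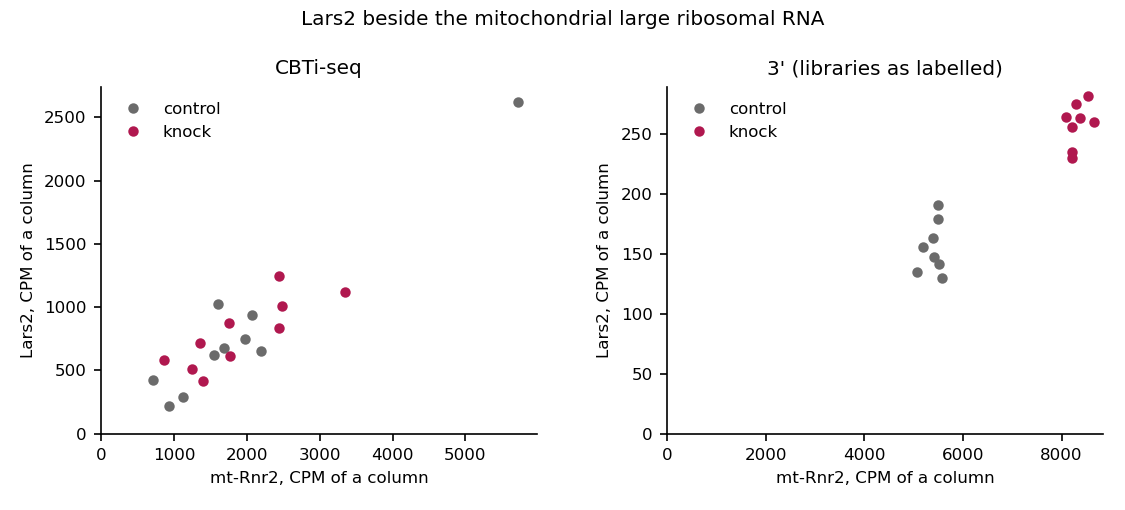
Lars2 (vertical) against mt-Rnr2 (horizontal), in CPM of each column, for CBTi-seq (left) and the 3' libraries as labelled (right). In CBTi-seq the control column at 2622 CPM of Lars2, the shallowest, also has the highest mt-Rnr2, 5725 CPM. In the 3' panel the groups form separate clouds.

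At 20 CPM or more, Iars2, Rars2 and, tied, Nars2 and Yars2 had the largest mitochondrial ratios in CBTi-seq. Iars2, the isoleucyl enzyme, ran from 42.1 over a median of 92.7 to 185 CPM in control columns and from 30.3 over 53.9 to 84.9 CPM in knock columns. No knock column passed the control median, and the log2 ratio was -0.74 (-0.996 to -0.49), the lowest among synthetases at 20 CPM or more. Of the distinct 50-base stretches of its transcripts, 22.7% are shared with other genes, nearly all with Rab3gap2 on the opposite strand, and the strand setting of the counts is unknown. Rab3gap2 itself was at 51.0 CPM in control and 57.9 in knock, a log2 ratio of 0.18 (-0.11 to 0.47). Tars2, the threonyl enzyme and the next highest mitochondrial gene per kilobase after Lars2 (19.4 CPM per kb, as Yars2), had a log2 ratio of -0.22 (-0.41 to -0.03), -0.35 without knock column 10, with columns from 72.2 over 131 to 153 CPM in control and from 38.9 over 101 to 154 CPM in knock.

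Rars2, the arginyl enzyme, ran from 0 over 29.2 to 83.0 CPM in control and from 10.1 over 36.9 to 78.8 CPM in knock. The summed log2 ratio was 0.67 (0.33 to 1.01), without knock column 10 it was 0.43, and with columns thinned to 50000 counts it was -0.07. Nars2, the asparaginyl enzyme, ran from 0 over 22.9 to 51.2 CPM in control and from 4.32 over 22.5 to 58.4 CPM in knock, with a log2 ratio of 0.46 (0.03 to 0.89). Leaving out knock column 10 brought that to 0.04, and the column medians were alike. Yars2, the tyrosyl enzyme, ran from 0 over 50.6 to 89.4 CPM in control and from 53.1 over 80.6 to 109 CPM in knock. All 10 of its knock columns were above the control median, with a log2 ratio of 0.46 (0.21 to 0.71).

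Mitochondria make glutaminyl-tRNA through an amidotransferase and not through a synthetase of their own, and Ears2, the glutamyl enzyme, supplies its substrate. In CBTi-seq the log2 ratio of Ears2 was -0.25 (-0.63 to 0.12), and 0.12 without control column 9. The amidotransferase genes Qrsl1, Gatc and Gatb had ratios of -0.44, -0.04 and 0.02, and Mtfmt, which formylates the initiator methionyl-tRNA, -0.20, all with intervals that included 0. The other mitochondrial synthetases with 20 CPM (Cars2, Fars2, Hars2, Mars2, Sars2, Wars2) had log2 ratios from -0.45 in Wars2 to 0.34 in Fars2. Wars2 was -0.16 without control column 9. The mean of column CPM gave -0.72 for Fars2, whose control column 1 stood at 313 CPM from 13 counts, with the next column at 47.1 CPM. Vars2 was at 22.8 CPM in control and 13.7 in knock, from 88 and 48 counts, a log2 ratio of -0.74 (-1.27 to -0.21).

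**Figure D4:**
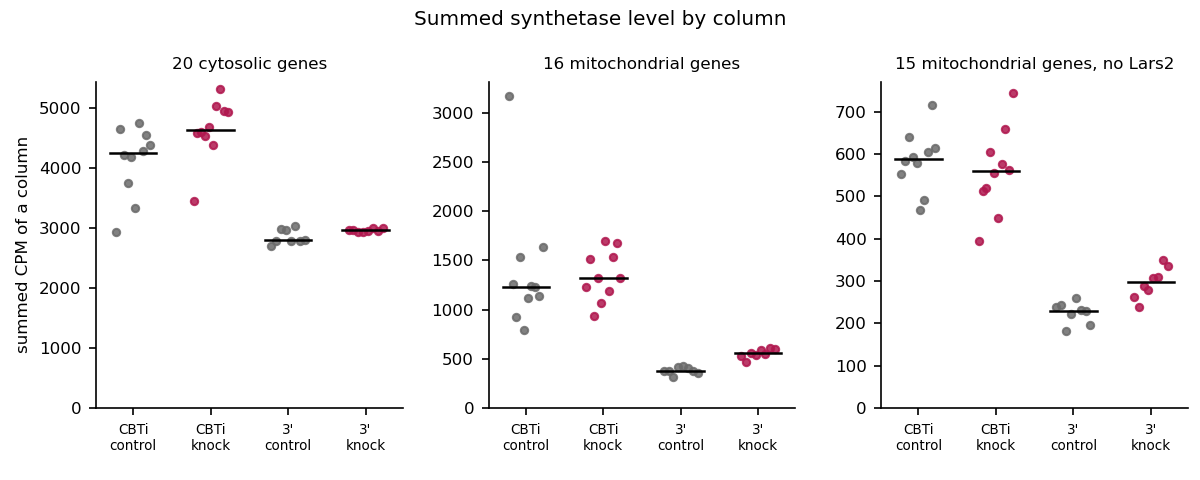
Summed CPM of the 20 cytosolic genes, of the 16 mitochondrial genes and of the 15 without Lars2, by column (points) with the median (bar), in CBTi-seq control and knock and in the 3' libraries as labelled. The highest mitochondrial point, 3175 CPM in control 1, is gone from the panel without Lars2, where control columns reach 716 CPM.

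The cytosolic share of all synthetase counts was 78.4% in both CBTi-seq groups (exact binomial intervals 77.9 to 79.0% and 77.8 to 78.9%). By column it ran from 48.0 to 84.1% in control and from 72.1 to 83.1% in knock. Without Lars2 the share was 87.5% in control (87.0 to 88.0%) and 88.9% in knock (88.4 to 89.3%). In the 3' libraries the share was 88.1% in the library labelled control (87.7 to 88.5%) and 84.1% in the library labelled knock (83.7 to 84.5%). The 3' columns ran from 86.8 to 90.5% and from 82.8 to 86.4%, which do not overlap. Without Lars2 the 3' shares were 92.4% under the control label and 90.9% under the knock label. Their columns then ran from 91.5 to 94.2% and from 89.4 to 92.6%, which overlap.

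In the 3' libraries, single synthetases differed far more between groups than in CBTi-seq, and in both directions. Genes in general did so too, by the shares that were 2-fold apart. The 20 cytosolic genes summed to 2835 CPM under the control label and 2962 CPM under the knock label, a log2 ratio of 0.06 (0.04 to 0.09) that was -0.08 with TMM factors and -0.10 with median-of-ratios factors. These scalings lowered the median of all 5701 genes at 20 CPM from 0.18 by 0.14 and 0.16. Of the 20, 11 had a log2 ratio above 0, beside 58.8% of all genes, and 7 with median-of-ratios factors, beside 51.0%. The median of the 20 was 0.06, and -0.08 and -0.10 with these factors. Intervals lay above 0 for 7 and below it for 7, where 49.4% and 32.3% of all genes had such intervals.

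At a mean of 50 CPM, 1 synthetase was 2-fold higher in the library labelled knock (Aars) and 1 was 2-fold lower (Farsb), against 13.3% and 4.53% of all genes. With TMM and median-of-ratios factors the log2 ratio of Aars was 0.97 and 0.95, short of 2-fold. Columns did not overlap for 5 cytosolic genes in the higher direction (Aars, Farsa, Mars, Sars, Vars) and 2 in the lower (Farsb, Yars). Among the mitochondrial genes at 20 CPM this held for Lars2 alone, in the higher direction. Of all genes at 20 CPM, 21.2% were apart in the higher direction and 8.02% in the lower, and with median-of-ratios factors 5 synthetases in all were apart.

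The subunits of the cytosolic phenylalanyl enzyme differed in opposite directions in the 3' libraries. The enzyme is built from the alpha subunit Farsa and the beta subunit Farsb. Farsa ran from 13.2 over a median of 25.8 to 41.6 CPM in the library labelled control and from 44.7 over 59.5 to 71.1 CPM in the library labelled knock, a log2 ratio of 1.24 (0.99 to 1.49). Farsb ran from 54.6 over 87.0 to 113 CPM in control columns and from 24.0 over 32.1 to 36.2 CPM in knock columns, a log2 ratio of -1.58 (-1.79 to -1.37). With TMM factors the ratios were 1.10 and -1.72. In CBTi-seq both subunits had a log2 ratio of 0.04, with intervals of -0.17 to 0.25 for Farsa and -0.14 to 0.21 for Farsb. Farsb shares 7.27% of its 50-base stretches with Sgpp2 on the opposite strand. Sgpp2 had 1.41 CPM under the 3' control label and 9.17 under the knock label.

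**Figure D5:**
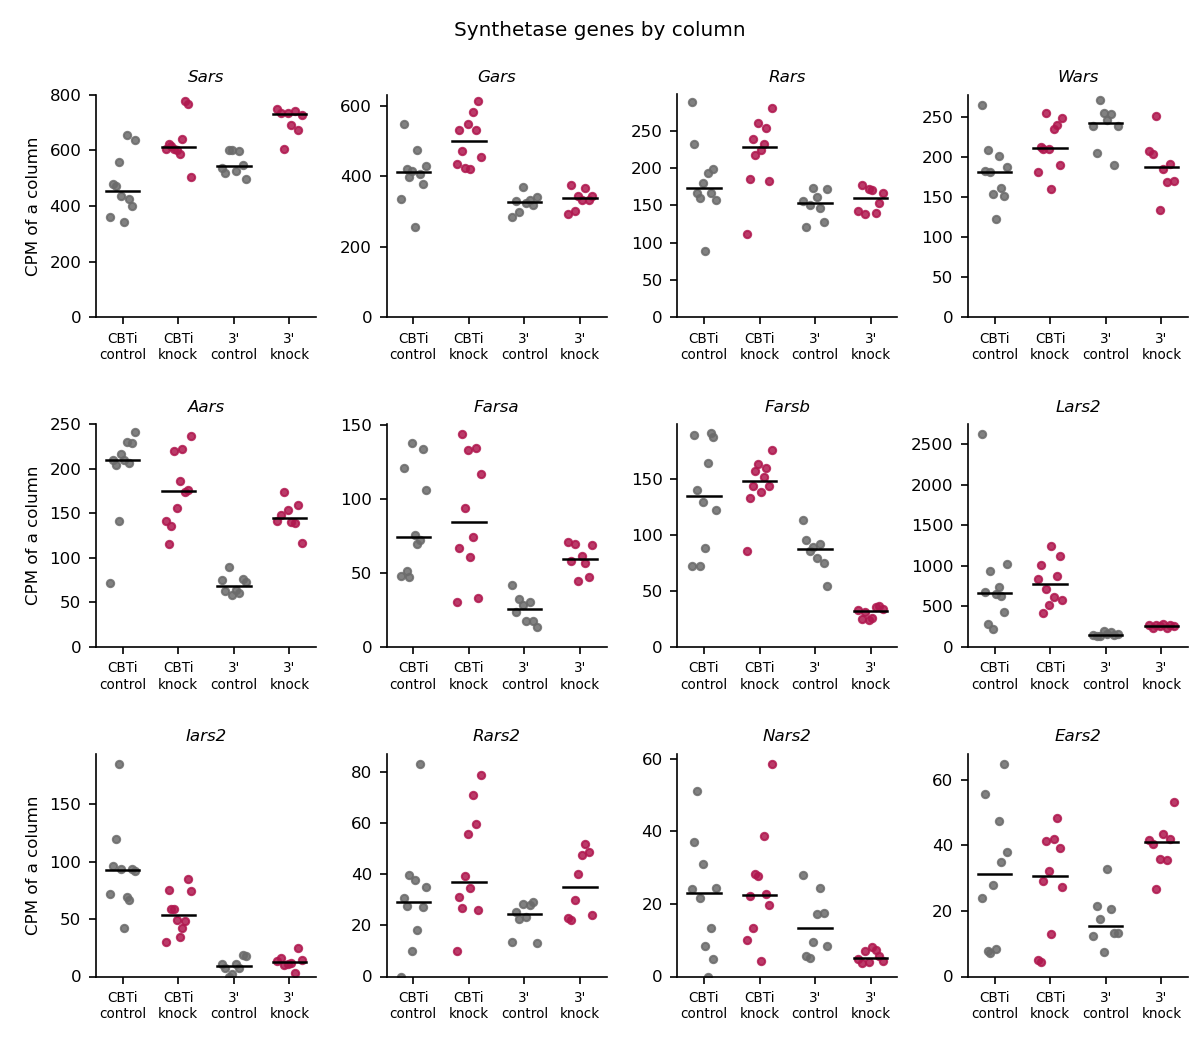
CPM by column (points) with the median (bar) for 12 synthetase genes in CBTi-seq control and knock and in the 3' libraries as labelled. Farsa and Farsb show no shift between the CBTi-seq groups and separate in opposite directions in the 3' panels, and Sars is higher in CBTi-seq knock and, as labelled, in 3' knock.

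Aars ran from 58.6 over 68.4 to 90.1 CPM in the 3' library labelled control and from 117 over 145 to 174 CPM in the library labelled knock, a log2 ratio of 1.11 (0.96 to 1.26). This was opposite to its small difference in CBTi-seq. Of its 50-base stretches 13.8% are shared, nearly all with Exosc6 on the same strand, a gene listed at 0 in the 3' tables. Sars, with the highest CPM of the synthetases in the 3' library labelled control (542 CPM), ran from 498 over 543 to 601 CPM there. In the library labelled knock Sars ran from 605 over 729.7 to 749 CPM. Its log2 ratio of 0.38 (0.32 to 0.44) stood beside 0.37 in CBTi-seq, and exchanged 3' labels would give it the opposite sign. With TMM factors the ratio of Sars was 0.24 in the 3' libraries and 0.40 in CBTi-seq. With median-of-ratios factors it was 0.22 and 0.39, so the likeness in size depended on the scale. Rars and Wars, large in CBTi-seq, had 3' log2 ratios of 0.15 (0.04 to 0.27) and -0.28 (-0.38 to -0.18), and that of Rars was -0.01 with median-of-ratios factors.

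Mars and Vars, the valyl enzyme, were the other cytosolic genes apart in the higher direction. Mars ran from 23.4 over 35.9 to 47.6 CPM under the control label and from 60.7 over 71.5 to 77.4 CPM under the knock label, a log2 ratio of 0.89 (0.69 to 1.10). Vars ran from 35.3 over 50.9 to 61.2 CPM and from 68.4 over 88.9 to 107 CPM, a log2 ratio of 0.80 (0.62 to 0.99). Yars, the tyrosyl enzyme and one of the genes with a promoter match, was lower, from 170.1 over 187 to 219 CPM and from 122 over 150.1 to 160.5 CPM, with a log2 ratio of -0.36 (-0.47 to -0.25). Hars, the histidyl enzyme, had a log2 ratio of 0.80 (0.59 to 1.005) and Dars, the aspartyl enzyme, one of -0.68 (-0.87 to -0.48), both with columns that overlapped. With columns thinned to 50000 counts Hars was -0.36 and Yars 0. Eprs, which charges both glutamate and proline tRNA, Lars and Nars had ratios of -0.28, -0.38 and -0.23 with intervals below 0. Complex synthetases above 0 numbered 3 of 8, with a median of -0.16, and those outside it 8 of 12, with a median of 0.07. Of all genes at 20 CPM, 58.8% were above 0. Fibroblast markers summed to 836 CPM under the control label and 1691 CPM under the knock label. Of the 9 with counts under both labels, 6 were higher under knock. They were Vim (0.86), Pdgfrb (0.90), Fn1 (0.92), Col1a1 (1.49), S100a4 (1.73) and Col1a2 (2.31). Dcn (-1.92), Thy1 (-1.64, from 12 and 5 counts) and Lum (-0.70, from 5 and 4 counts) were lower. Leukocyte markers, nearly all Cd68, summed to 81.5 and 162 CPM, and endothelial markers to 32.3 and 33.4 CPM. The part of these in the synthetase differences was not tested.

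Mitochondrial synthetases were higher in the 3' library labelled knock as a sum. They went from 383 to 559 CPM, a log2 ratio of 0.55 (0.48 to 0.61), or 0.36 (0.27 to 0.45) without Lars2. Column sums ran from 313 to 423 CPM in control and from 469 to 614 CPM in knock, and did not overlap. Without Lars2 they ran from 183 to 259 CPM in control and from 238 to 349 CPM in knock, and overlapped. Only 6 of the 16 genes reached 20 CPM there, and 4 of these had a log2 ratio above 0, beside 58.8% of all genes. Without Lars2 the median log2 ratio of the other 5 was 0.014, beside 0.18 over all genes at 20 CPM. Lars2 ran from 130.2 over 151 to 191 CPM in control and from 231 over 262 to 282 CPM in knock, a log2 ratio of 0.80 (0.69 to 0.90). In the same libraries mt-Rnr2 went from 5308 to 8348 CPM (0.65, 0.64 to 0.67), and its part in the Lars2 difference was not tested.

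Ears2 ran from 7.56 over 15.4 to 32.7 CPM in the 3' library labelled control and from 26.6 over 41.1 to 53.3 CPM in the library labelled knock, with a log2 ratio of 1.10 (0.81 to 1.40). Every knock column was above the control median, though the ranges overlapped. Rars2 had columns from 13.2 over 24.3 to 29.2 CPM and from 22.1 over 35.0 to 52.0 CPM, with a log2 ratio of 0.68 (0.41 to 0.96), near its CBTi-seq value. Iars2, lower in CBTi-seq knock, was at 9.48 and 12.6 CPM in the 3' libraries, a log2 ratio of 0.40 with an interval that included 0. Among the 9 genes with counts but under 20 CPM, Aars2 had the largest ratio, 2.08 (0.98 to 3.38), from 8 and 44 counts, followed by Yars2 at 1.43, Sars2 at 1.34 and Cars2 at 1.31. Nars2 was opposite between methods, with a 3' log2 ratio of -1.17 (-1.68 to -0.68) at 13.3 and 5.89 CPM.

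Of the 20 cytosolic genes, 9 had a log2 ratio above 0 in both methods (Cars, Farsa, Gars, Hars, Mars, Rars, Sars, Tars and Vars), 3 below 0 in both, and 8 differed in sign. These counts rest on the 3' labels, and with the labels exchanged, an alternative chosen after seeing the data, 8 would share a sign and 12 would differ. The 3' ratios of Cars, Gars and Tars (0.07, 0.04 and 0.07) are smaller than the 0.14 by which TMM factors lower them, and they turn negative there. For 14 of the 20 the ratio was larger in size in the 3' libraries. Larger 3' differences were general. At a mean of 50 CPM, 13.3% of all genes were 2-fold higher and 4.53% lower there, against 0.343% and 0.668% in CBTi-seq. The shares of all genes that kept their sign, or were larger in size, between methods are not given here. These counts are thus not shown to be particular to synthetases. The ATF4-linked genes split 6 of 12 above 0 in the 3' libraries, with a median of -0.02, and the 8 others 5 of 8, with a median of 0.17. Of all genes at 20 CPM there, 58.8% were above 0. The stress response sum was 4715 CPM under the 3' control label and 3997 CPM under the knock label, a log2 ratio of -0.24 (-0.26 to -0.22), with Ddit3 at -0.87 (-0.99 to -0.75) and Chac1 at -0.77 (-1.04 to -0.51). The signs of the sum, Ddit3 and Chac1 are opposite to those in CBTi-seq, as that of Rrm2 is. Not all of the list reversed. Of its 24 genes at 20 CPM in the 3' libraries, 9 had a log2 ratio above 0 and 15 below. Shmt2, Psph, Mthfd2 and Phgdh were above 0 in both methods. Their ratios were 0.50, 0.28, 0.19 and 0.12 in the 3' libraries and 0.39, 0.61, 0.40 and 0.27 in CBTi-seq.

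Between methods, most synthetases had a higher CPM in CBTi-seq, as did 78.9% of all genes in control and 75.1% in knock. In control, 17 of 20 cytosolic genes had a higher CPM in CBTi-seq than in the 3' library, with a median log2 ratio of 0.82, while all genes at 20 CPM had a median of 1.35. In knock the medians were 0.87 over all genes and 0.97 for the cytosolic genes. Of the 15 mitochondrial genes with 3' counts, 13 were higher in CBTi-seq in each group, with medians of 1.46 and 1.22. Vars was the cytosolic gene with the largest such ratio in control, 225 against 49.7 CPM (log2 ratio 2.18, 2.00 to 2.36), and Wars the lowest, 171 against 227 CPM (-0.41, -0.54 to -0.28). Method and sample cannot be told apart here, since each method read its own cells. The top count of any gene in a column also differed, at 623 in CBTi-seq control and 638 in CBTi-seq knock. With the 3' method it was 67257 under the control label and 59262 under the knock label. The part of this difference in the CPM ratios between methods was not tested.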

How the data were processed

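RNA of L929 cells was measured in 3 samples. Raw whole-number counts are what the authors deposited, in a CBTi-seq table by symbol whose name refers to UMIs (molecular identifiers) and in 3' tables of 55402 Ensembl IDs, 55141 of which matched a GENCODE vM21 symbol. Alignment tools listed in the submitters' processing notes are STAR 2.7.11b, Picard and FastQC, with builds GRCm38 and GRCh38 but no roles. Counter, strand setting and unit of 3' counts (reads or UMIs): not given in the sources used here. Where PCR reads were counted, intervals are too narrow. No CBTi-seq gene exceeded 638 counts in a column.

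Counts were summed per group and divided by all counts (CPM). Levels have exact Poisson and ratios exact conditional (Clopper-Pearson) 95% intervals, and shares exact binomial ones. Columns are not replicates, so no count model or test was used. A 2-fold difference needed a mean of 50 CPM and a log2 ratio of 1 in size. Medians and counts took genes at 20 CPM. Members and lists were chosen with earlier results of these data known. Given by column were, per method and class, the 3 largest ratios at 20 CPM and the 2 highest levels per kilobase in CBTi-seq control, and up to 4 genes per list by ratio. The marker genes, Yars2, Kars, Nars, Vars, Hars, Dars, Shmt2, Psph, Mthfd2, Phgdh, the mitochondrial rRNA, Gm42418 and overlapping genes were named after their values were seen. Alternatives were TMM (edgeR 4.0.16) and median-of-ratios (DESeq2 1.42.0) factors, totals without mitochondrial and ribosomal protein genes, the mean of column CPM, thinning to 50000 counts, a correction for collisions among 1024 identifiers, other level limits and each column left out. The calculation was tested on simulated data. Python 3.11.15, scipy 1.17.1 and R 4.3.3 were used.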

Additional observations from a re-analysis of the deposited data

Results flagged for a closer look

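Each of the 36 genes and 3 class sums was looked at in every group of 8 or 10 columns for a column far from the rest, with a gap beyond the 95% limit of Dixon's test. Of 154 groups with any spread, 17 had one, and chance gives about 1 in 20. In CBTi-seq control, column 1, the shallowest, was highest in Lars2, at 2622 CPM (next 1024), in the mitochondrial sum, at 3175 CPM (next 1638), and in Fars2, at 313 CPM from 13 counts (next 47.1). It was lowest in Cars, at 72.2 CPM from 3 counts. In CBTi-seq knock, column 1 was lowest in the cytosolic sum, at 3451 CPM (next 4387), in Farsb, at 85.8 CPM (next 133), in Nars, at 257 CPM (next 347), and in Vars2, at 0 CPM. Kars was highest in CBTi-seq control column 3, at 149.5 CPM, and Rars2 in control column 8, at 83.0 CPM from 31 counts. Of the 3' columns labelled control, Cars was highest in column 4, at 121 CPM, Kars in column 3, at 70.1 CPM, Pars2 in column 3, at 25.0 CPM from 10 counts, and Aars2 in column 5, at 6.24 CPM from 4 counts. Of those labelled knock, Iars was highest in column 4, at 109 CPM, Kars in column 2, at 39.3 CPM, and Qars in column 3, at 54.0 CPM.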

How the results depend on the processing

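No paired analysis was possible because the labels give 1 sample per group and no replicate numbers. All values here are log2 ratios of knock over control unless said otherwise. In CBTi-seq the mean of column CPM gave 0.18 for the cytosolic sum, 0.21 for the cytosolic median, -0.059 for the mitochondrial sum and -0.053 for Lars2. Without Lars2, an alternative chosen after seeing the data, the CBTi-seq mitochondrial sum was -0.047. At 50 CPM or more, 2 mitochondrial genes were higher. Rars2 in CBTi-seq was -0.074 with columns thinned to 50000 counts. For the 3' method, TMM factors, median-of-ratios factors and totals that leave out mitochondrial and ribosomal protein genes gave -0.075, -0.096 and -0.068 for the cytosolic sum and -0.083, -0.104 and -0.076 for its median. They gave 0.41, 0.39 and 0.41 for the mitochondrial sum and 0.21, 0.19 and 0.22 for its median. With median-of-ratios factors 7 cytosolic genes were higher, Rars was -0.0063, and 5 synthetases had columns that did not overlap (the scaling for that count was chosen after seeing the data). Thinning gave 0.15 for the 3' cytosolic sum, -0.011 for its median, 0.73 for the mitochondrial sum and 0.58 for its median. Without Lars2 these mitochondrial values were 0.36 and 0.014. The 3' mitochondrial median was 0.68 with no limit on level, where 11 genes were higher, and 0.80 at 50 CPM, where 1 was. The cytosolic share was 74.5% (mean of columns), 77.8% (thinned) and 87.5% (without Lars2) in CBTi-seq control, and 77.5%, 77.8% and 88.9% in knock. In 3' control it was 92.4% without Lars2, and in 3' knock 83.3% thinned and 90.9% without Lars2. Leaving out each column in turn gave 0.059 (without control 5) to 0.21 (without control 10) for the CBTi-seq mitochondrial sum, 0.12 to 0.17 for the cytosolic sum, and 0.06 (without knock 8) to 0.19 (without control 9) for the cytosolic median. The CBTi-seq control share ranged from 77.5 to 79.1%. The cause of these shifts was not tested. Low counts limit the mitochondrial genes most, since 10 of 16 were under 20 CPM in the 3' libraries.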
